A study of Mus musculus with 31 samples.

Results

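The comparison described here is that of resting Cgas-/- and Cgas+/+ primary microglia, 2 groups of 3 RNA-seq libraries each that were taken by genotype and treatment labels from the 18 microglia libraries of a series of 31. Microglia were grown from the cortices of newborn pups in mixed glial cultures with GM-CSF, shaken off and plated. The other 4 groups are Cgas+/+ and Cgas-/- cells treated with tau fibrils, which are aggregated recombinant tau, or with HT-DNA, herring testis DNA that activates cGAS. Cgas-/- mice carry a germline deletion of Cgas, so that every cell of a culture carried it. The resting cells of both genotypes are labelled vehicle, whereas the study describes them as not treated, and the short names of the libraries read Ctrl for Cgas+/+ and NT for Cgas-/- cells. The sex of the pups, the number of pups in a culture and the day of culture are not given in the sources used here, and the study calls its replicates independent samples. The p-values rest on the spread between libraries of a group, estimated jointly over all 18 microglia libraries. Of 54532 genes in the table, 13675 passed a filter on low counts and were tested.

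Cells read DNA outside the nucleus as a sign of infection or damage, and cGAS is the enzyme that detects it. The cyclic dinucleotide cGAMP that cGAS produces is the ligand of STING, a membrane protein of the endoplasmic reticulum. Downstream, phosphorylation by TBK1 lets the transcription factor IRF3 enter the nucleus, where it turns on type I interferon genes such as Ifnb1. Secreted interferon acts back on the cells through IFNAR1 and IFNAR2, the kinases JAK1 and TYK2 and a complex of transcription factors that includes STAT2 and IRF9, which binds interferon-stimulated response elements in promoters of interferon-stimulated genes. Microglia, the resident macrophages of the brain, express the pathway and respond to interferon.

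Resting Cgas-/- microglia expressed interferon-stimulated genes at lower levels than resting Cgas+/+ microglia. All 60 tested genes of a list of type I interferon-stimulated genes were lower in Cgas-/- cells, from a log2 difference of -8.15 for Ifit3 to -1.34 for Trim25. The gene lists used here and below were chosen with earlier results of these data known, so their shares are descriptions and not independent evidence. Of the listed genes of cell cycle and DNA replication 32 of 38 passed the test as lower, as did 15 of 20 of MHC class I presentation and 18 of 23 of homeostatic microglia. Genes higher in Cgas-/- cells included Arg1, Ccl6 and Vegfa and most genes of the unfolded protein response. In total 1009 genes were lower and 359 were higher by more than 1 on the log2 scale at an adjusted p under 0.05, which is 7.38% and 2.63% of the genes tested (edgeR's quasi-likelihood test with Benjamini-Hochberg adjustment over all 13675 genes). At any fold change 3752 genes (27.4%) were lower and 3373 (24.7%) higher, and the median log2 difference of all tested genes was -0.01. Below, "called" means past both thresholds, and "passed the test" means an adjusted p under 0.05 at any fold change. Counts of list members that passed the test are to be read beside the 27.4% lower and 24.7% higher of all genes. A log2 difference is always Cgas-/- minus Cgas+/+. Levels are normalized CPM, counts scaled to library size by TMM.

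Large changes were mostly decreases. A fall beyond 2 on the log2 scale (4-fold) was found for 423 genes and a rise of that size for 72, and beyond 4 (16-fold) the numbers were 115 and 8. The low-count filter used all 18 microglia libraries, so genes with few counts at rest could be tested because treated cells expressed them. With only the resting groups fitted, 820 genes were called lower and 341 higher, against 1009 and 359. How far the excess of large falls depends on the filter was not tested. Groups did not overlap in 958 of the 1009 genes called lower and in 343 of the 359 called higher. Genes past both thresholds tend to separate, and the share without overlap over all tested genes is not given. These counts therefore add no evidence beyond the calls.

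**Figure D1:**
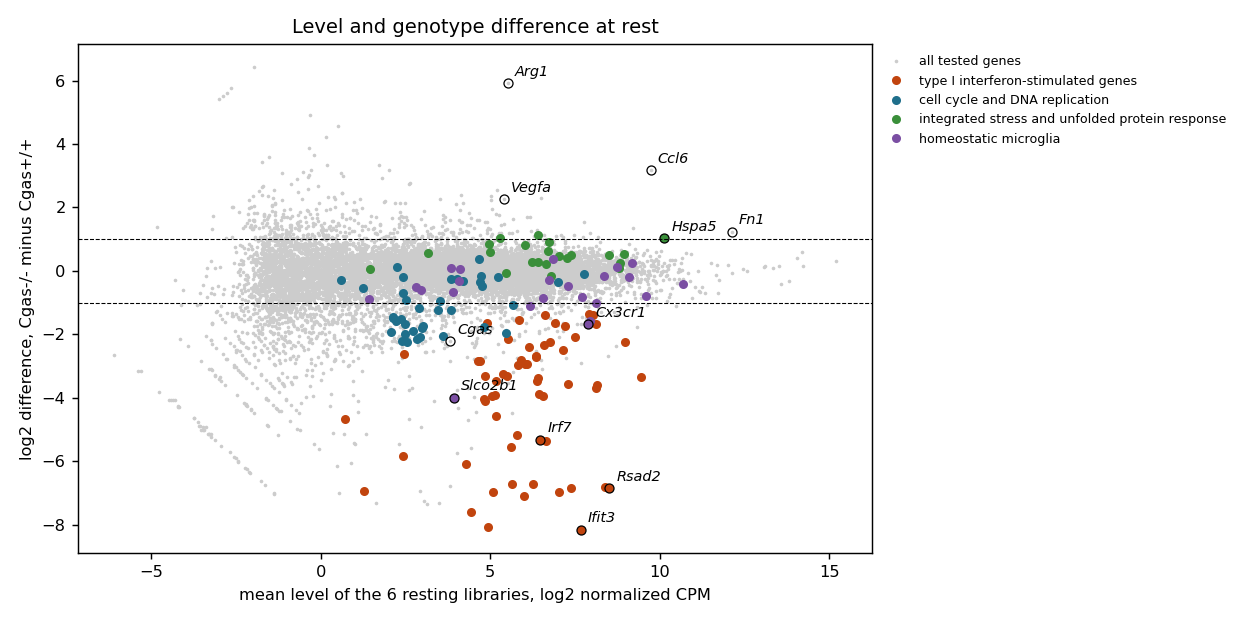
Each point is a gene, with the log2 of its mean normalized CPM over the 6 resting libraries on the x axis and its log2 difference between Cgas-/- and Cgas+/+ cells on the y axis. Dashed lines mark a log2 difference of 1 in either direction. All 60 interferon-stimulated genes (orange) lie below the lower line, as do 21 of 38 genes of the cell cycle (blue). Of 22 genes of the stress and unfolded protein response (green), 18 passed the test as higher at any fold change, but only 3 were called higher.

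The 6 libraries held 17037459 to 21990131 counts. Correlations of log2 CPM across genes were 0.996 to 0.997 within a genotype and 0.97 to 0.976 between them, and every pair of libraries of a genotype differed by more than sampling noise. Microglial markers were present in both genotypes (Csf1r at 984 and Cx3cr1 at 359 CPM in Cgas+/+ cells), although Siglech, a marker of resting microglia, had 0 counts in every library. All 10 listed markers of microglia identity passed the test as lower in Cgas-/- cells, with a median log2 difference of -0.62. They summed to 6560 to 6660 CPM in Cgas+/+ and 4390 to 4550 CPM in Cgas-/- libraries. Markers of neurons summed to at most 2.34 CPM in any library. The genotypes also differed in sex-linked genes. Xist, which is transcribed from the inactive X chromosome, was counted 8644 to 12028 times in Cgas+/+ and 4759 to 6114 times in Cgas-/- libraries, and Ddx3y of the Y chromosome 432 to 594 and 1008 to 1306 times. The share of male and female cells and the genotype therefore cannot be told apart in these libraries, nor can any other difference between the cultures of the 2 genotypes. Markers of other cells did not all move one way. The fibroblast collagen gene Col1a2 had 23, 16 and 39 counts in Cgas+/+ and 0, 0 and 2 in Cgas-/- libraries. Over the marker list of fibroblasts and mural cells, 5 of 7 tested genes passed the test as lower, and the list summed to 16.9 to 20.8 CPM in Cgas+/+ and 7.66 to 10.7 CPM in Cgas-/- libraries. Endothelial markers summed to 106 to 126 against 27.8 to 32.8 CPM, mostly from Flt1 and Kdr, and 3 of the 8 listed had at most 3 counts in all 6 libraries. Oligodendrocyte markers summed to 644 to 666 against 574 to 619 CPM. The sums of astrocyte markers overlapped, at 9.69 to 10.4 CPM in Cgas+/+ and 8.71 to 11.4 CPM in Cgas-/- libraries, with 3 of 8 tested members called lower (Aldh1l1, Gfap and Gja1) and 2 called higher (Slc1a2 and Aldoc). S100a8, a neutrophil marker, was higher in Cgas-/- libraries by 0.45 (SE 0.18). With DESeq2, Gja1, Slc1a2 and S100a8 did not pass (adjusted p = 0.106, 0.0582 and 0.0782), and they also failed without some single libraries. The part of cells other than microglia in the results below was not tested.

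Cgas itself (ENSMUSG00000032344, chromosome 9, 78430526 to 78443237 in GRCm38) was counted 613, 434 and 436 times in the Cgas+/+ and 73, 105 and 119 times in the Cgas-/- libraries. Its level was 23.2 ± 4.21 CPM (SD, n = 3) in Cgas+/+ and 4.93 ± 0.748 (SD, n = 3) in Cgas-/- cells, a log2 difference of -2.22 (SE 0.11, adjusted p = 4.73e-22). All 3 Cgas-/- libraries lay below all 3 Cgas+/+ libraries, in accord with their labels, but reads remained. Whether these reads lie in the deleted part is not given in the sources used here.

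The interferon-stimulated genes are described next, beginning with the promoter sequences of 4 genes with large falls: Rsad2 and Ifit3, which encode antiviral proteins, Isg15, a ubiquitin-like modifier, and the chemokine gene Cxcl10. The stretches are from RefSeq (GRCm38.p6), read 5′ to 3′ on the gene's strand and ending at the base before the annotated start. They are shown because each holds the core of an interferon-stimulated response element, searched as GAAA, any 2 bases and GAAA on either strand and written in capitals (overlapping matches run together in Isg15). They lie at chr12:26456453-26456602 (minus strand) for Rsad2, chr19:34583363-34583528 (plus strand) for Ifit3, chr4:156200819-156200968 (minus strand) for Isg15 and chr5:92348890-92349112 (minus strand) for Cxcl10.
Rsad2: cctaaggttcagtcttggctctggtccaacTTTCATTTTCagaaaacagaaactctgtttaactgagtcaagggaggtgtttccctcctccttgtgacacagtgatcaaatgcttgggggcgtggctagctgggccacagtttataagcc
Ifit3: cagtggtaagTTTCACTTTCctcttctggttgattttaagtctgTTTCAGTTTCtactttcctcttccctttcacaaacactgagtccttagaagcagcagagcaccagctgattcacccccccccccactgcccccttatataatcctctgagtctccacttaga
Isg15: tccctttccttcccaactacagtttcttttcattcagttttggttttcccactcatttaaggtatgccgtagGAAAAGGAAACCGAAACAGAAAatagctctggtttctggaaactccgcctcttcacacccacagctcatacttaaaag
Cxcl10: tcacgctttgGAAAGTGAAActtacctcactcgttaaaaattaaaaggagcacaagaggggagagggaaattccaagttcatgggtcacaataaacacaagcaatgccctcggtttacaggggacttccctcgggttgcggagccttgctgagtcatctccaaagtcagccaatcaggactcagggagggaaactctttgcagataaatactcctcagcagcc

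The first match begins 120 bases before the start in Rsad2, 156 in Ifit3, 78 in Isg15 and 213 in Cxcl10. In windows from 250 bases before to 50 after the start, the element was found in 398 of 9968 tested genes with a RefSeq promoter (3.99%). Among genes called lower in resting Cgas-/- cells it was found in 92 of 700 (13.1%), and among genes called higher in 9 of 234 (3.85%). Of the list of interferon-stimulated genes, 26 of 48 with a promoter held it (54.2%). Outside that list, 66 of 652 genes called lower did (10.1%). Among listed cell cycle genes it was found in 1 of 30. These shares are a description of letters in fixed windows and say nothing of occupancy. The windows of Cgas and of Irf7 held no match.

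In the interferon-stimulated list, 22 of the 60 genes fell by more than 4 on the log2 scale, 30 by 2 to 4 and 8 by less than 2, with a median log2 difference of -3.47. Summed over the list, the genes took 14900, 9120 and 11800 CPM in the 3 Cgas+/+ libraries and 1480, 1640 and 1450 CPM in the 3 Cgas-/- libraries. The lowest Cgas+/+ library was thus well above the highest Cgas-/- library. Cgas+/+ replicate 1 was the highest of its group in 58 of the 60 genes, so that the spread among Cgas+/+ libraries was larger than among Cgas-/- libraries.

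Ifit3, which encodes an interferon-induced protein with tetratricopeptide repeats, was counted 13140, 5721 and 7199 times in Cgas+/+ and 22, 33 and 30 times in Cgas-/- libraries. It went from 406 ± 168 to 1.42 ± 0.262 CPM (SD, n = 3 each), a log2 difference of -8.15 (SE 0.45, adjusted p = 2.94e-09). Rsad2, which encodes viperin, was counted 24069, 8721 and 13223 times against 64, 169 and 140, a difference of -6.85 (SE 0.49). Isg15 had 3325, 1630 and 2012 counts against 34, 72 and 73, a difference of -5.18 (SE 0.33). In each of these genes the Cgas-/- libraries lay far below the range of the Cgas+/+ libraries, although the rule for naming Ifit3 and Rsad2 required groups that did not overlap. Oas2 and Oas3, which encode sensors of double-stranded RNA, had 1220, 900 and 672 against 1, 8 and 4 counts and 3534, 2481 and 2199 against 13, 23 and 20 counts, differences of -7.60 (SE 0.35) and -7.08 (SE 0.26). The next largest falls of the rule for named genes, beside Cxcl10 and Ifit1, were Ifit3b, Ifi213, Ifit1bl1, Iigp1, Ifi44 and Ifi208, which lie outside the list in 4 cases and belong to interferon-inducible families. Iigp1 and Ifi44 had 2 counts in all in Cgas-/- libraries, so their folds are uncertain (185-fold and 147-fold, with 95% exact counting intervals of 51.0 to 1540 and 40.3 to 1220, which cover counting error only). Ifit3 and Ifit3b, and the Ifi200 genes, are close paralogs, so reads could be divided between them by the counting.

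**Figure D2:**
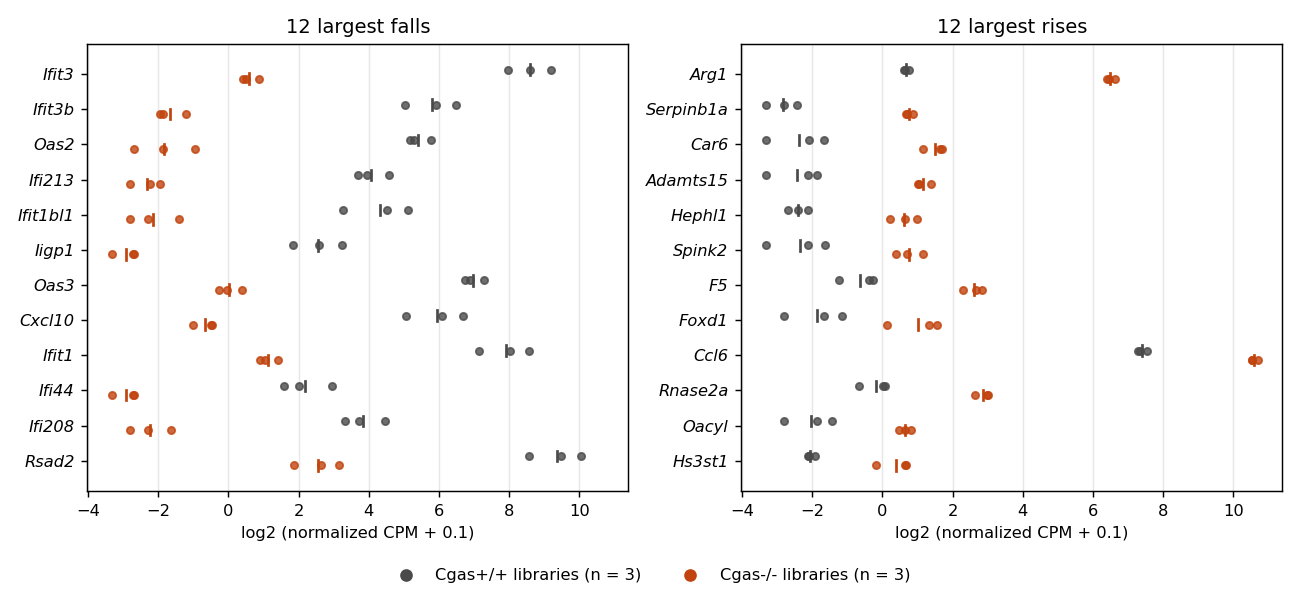
Points are the values of single libraries on a scale of log2 (normalized CPM + 0.1), with 3 Cgas+/+ libraries in grey and 3 Cgas-/- libraries in orange, and vertical ticks are group means. The 12 largest falls (left) and the 12 largest rises (right) are shown, and the groups do not overlap in any of them, a separation that the rule for choosing them required. The 6 values of Rsad2 run from 3.57 to 1067 CPM and those of Arg1 from 1.43 to 99.3 CPM.

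Transcription factors of interferon signalling differed in unequal measure, and not all were lower. Irf7, which amplifies the interferon response, was counted 4857, 3092 and 3156 times in Cgas+/+ and 65, 90 and 105 times in Cgas-/- libraries (log2 difference -5.32, SE 0.24). Stat2 fell by 3.58 (SE 0.15), from 288 ± 68.4 to 24.1 ± 1.60 CPM (SD, n = 3 each). Irf9, which encodes its partner in that complex, fell by 1.54 (SE 0.06). Irf1 fell by 1.49 and Irf2 by 0.55. Irf3, which STING signalling activates through phosphorylation, had 35.3 ± 0.691 and 36.8 ± 2.44 CPM (SD, n = 3 each), a difference of 0.06 (SE 0.06, adjusted p = 0.446), and Irf8, a factor of the myeloid lineage, rose by 0.13 (SE 0.04, adjusted p = 0.00532).

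Receptors and kinases of the pathway differed by little. In a list of 17 tested genes of interferons, receptors and JAK-STAT signalling, 9 passed the test as lower and 3 as higher, with a median log2 difference of -0.24. Ifnar1 fell by 0.31 (SE 0.04), and Ifnar2 had a difference of 0.04 (SE 0.04, adjusted p = 0.509). Tyk2 fell by 0.53 and Jak1 rose by 0.15. The feedback inhibitors went in opposite directions. Socs1 was counted 176, 97 and 101 times in Cgas+/+ and 37, 38 and 39 times in Cgas-/- libraries (a difference of -1.61, SE 0.21), and Socs3, which inhibits signalling of the IL-6 family through gp130, 174, 134 and 139 against 397, 378 and 502 times (a difference of 1.61, SE 0.14).

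Interferon transcripts themselves were near the limit of detection. Ifnb1 had 10, 0 and 3 counts in Cgas+/+ libraries and 0 in every Cgas-/- library, which makes it at least 4.04-fold lower against a floor of 3 counts over the group. It passed edgeR's test (adjusted p = 0.0178), but its groups overlapped at 0, and without Cgas+/+ replicate 1 the adjusted p was 0.117. The other 20 genes of type I, II and III interferons in the table had 5 counts in all in Cgas+/+ and 2 in Cgas-/- libraries, and a difference in any of them was not detectable at this depth.

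Genes of cytosolic DNA sensing and DNA clearance were described from a list of 20, of which 19 were tested. Of the tested genes, 9 (47.4%) passed the test as lower and 5 (26.3%) as higher, against 27.4% and 24.7% of all genes. Ifi204, which encodes an interferon-inducible DNA sensor, was counted 10322, 6444 and 6671 times in Cgas+/+ and 802, 1042 and 1074 times in Cgas-/- libraries, a difference of -2.91 (SE 0.16). Samhd1, a dNTP hydrolase, fell by 1.67 (SE 0.11). Smaller decreases were found for Tmem173, which encodes STING, from 34.8 ± 0.558 to 21.9 ± 0.208 CPM (SD, n = 3 each; difference -0.67, SE 0.07), for Tbk1 (difference -0.47, SE 0.05) and for Trim56 (difference -0.73, SE 0.06). Ikbke, a kinase related to TBK1, rose by 0.54 (SE 0.07). Rnaseh2b and Rnaseh2c, subunits of an enzyme that removes RNA from DNA, and Enpp1, which hydrolyses cGAMP, rose by 0.48, 0.37 and 0.44. Of these members, Ifi204, Samhd1 and Cgas were called.

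Of 20 tested genes of MHC class I presentation, 15 passed the test as lower and 1 as higher, against 27.4% and 24.7% of all genes, and the median log2 difference was -0.66. Tap1, a subunit of the peptide transporter, had 3764, 2546 and 2603 counts in Cgas+/+ and 587, 681 and 873 in Cgas-/- libraries (difference -1.96, SE 0.13). Nlrc5, a transactivator of class I genes, fell by 1.65, the immunoproteasome gene Psmb9 by 1.56 and the nonclassical class I gene H2-T23 by 1.49. Of the classical heavy chain genes, H2-K1 had 1102 ± 76.2 and 1104 ± 7.70 CPM (SD, n = 3 each; difference 0.00, SE 0.06, adjusted p = 0.972), H2-D1 had a difference of 0.02 (SE 0.06, adjusted p = 0.78), and the light chain gene B2m fell by 0.66 (SE 0.04). H2 genes are near-identical in parts, so their separate counts are uncertain. In class II, 3 of 10 tested genes passed the test as higher and 2 as lower. H2-Ab1 rose from 43, 36 and 21 to 211, 202 and 212 counts (difference 2.75, SE 0.20), whereas Cd74, the invariant chain, fell by 1.10 (SE 0.15).

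Chemokines and cytokines did not change together. Of 17 tested chemokine genes, 10 passed the test as lower and 2 as higher, with a median of -0.83. Cxcl10, a ligand of CXCR3 and an interferon-stimulated gene, was counted 2306, 775 and 1252 times in Cgas+/+ and 11, 12 and 9 times in Cgas-/- libraries (difference -6.97, SE 0.63). Ccl5, which attracts T cells and monocytes, had 403, 321 and 256 against 6, 20 and 4 counts (difference -4.91, SE 0.35). The neutrophil chemoattractant gene Cxcl2 rose from 72, 91 and 75 to 137, 126 and 187 counts (difference 1.01, SE 0.21), and Cxcl1 had 0 counts in every Cgas+/+ library against 7, 4 and 8 (at least 6.80-fold higher). In the list of proinflammatory cytokines and effectors, 9 of 20 (45%) passed the test as lower and 5 (25%) as higher, against 27.4% and 24.7% of all genes. Acod1, which makes itaconate, fell by 2.81 (SE 0.21), from 4918, 2710 and 2655 to 432, 406 and 523 counts, and Il18 fell by 1.01 (SE 0.17). Il1a rose by 1.60 (SE 0.10), from 288, 335 and 192 to 695, 742 and 859 counts, and Tnf by 0.53 (SE 0.15, adjusted p = 0.00971).

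Receptors for these ligands were also split. Ccr1, a receptor of CC chemokines, rose from 111 ± 6.10 to 324 ± 9.76 CPM (SD, n = 3 each), a log2 difference of 1.54 (SE 0.04). The receptors for the complement fragment C5a, C5ar1 and C5ar2, fell by 1.33 (SE 0.06) and 1.44 (SE 0.13). Cxcr3 had 14, 14 and 3 counts in Cgas+/+ libraries and 0 in each Cgas-/- library, at least 9.63-fold lower. Of Toll-like receptors and their adaptors, 12 of 18 passed the test as lower and 3 as higher. The 2 called members were Tlr3 and Tlr9. Tlr3, a sensor of double-stranded RNA, had 1156, 674 and 714 against 159, 172 and 187 counts (difference -2.19, SE 0.19), and Tlr9, a sensor of CpG DNA, 439, 465 and 324 against 122, 130 and 135 (difference -1.56, SE 0.10). Tlr4, the receptor of bacterial lipopolysaccharide, rose by 0.29 (SE 0.06). Among inflammasome and cell death genes, 9 of 15 passed the test as lower, including Casp1 (difference -0.59) and Mlkl (difference -1.28, SE 0.26), and 2 as higher, Nlrp3 (difference 0.54, SE 0.12) and Pycard (difference 0.42, SE 0.06).

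Homeostatic microglial genes were lower in resting Cgas-/- cells. Of 23 tested genes, 18 passed the test as lower and 3 as higher, with a median log2 difference of -0.52, and 5 were called lower. Slco2b1, an organic anion transporter used as a microglial marker, had 613, 712 and 531 counts in Cgas+/+ and 31, 37 and 40 in Cgas-/- libraries (difference -3.995, SE 0.135). The fractalkine receptor gene Cx3cr1 went from 359 ± 9.52 to 112 ± 2.62 CPM (SD, n = 3 each; difference -1.68, SE 0.04), and Olfml3 fell by 1.58 (SE 0.04). Groups were tight and far apart in all of these genes. Maf, a transcription factor of mature macrophages, fell by 1.12 (SE 0.06). P2ry12 and Tmem119 were low in both genotypes (9.39 and 18.2 CPM in Cgas+/+ cells) and fell by 0.59 and 0.65, and Tmem119 had differences of 0.20 under tau and 0.47 under HT-DNA. The higher members were Bin1, Rhob and Irf8, by 0.38 at most. In RNA from whole cultures, fewer cells in a state and less RNA per cell cannot be told apart.

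Disease-associated microglial genes, which rise in microglia near plaques and in degeneration, were more often higher than lower. Of 25 tested, 14 (56%) passed the test as higher and 7 (28%) as lower, against 24.7% and 27.4% of all genes. The median of 0.18 was small. Ccl6 stood out with 3505, 3777 and 3451 counts in Cgas+/+ and 29749, 28167 and 33340 in Cgas-/- libraries, from 168 ± 16.1 to 1532 ± 112 CPM (SD, n = 3 each; difference 3.19, SE 0.06). Cst7, a cysteine protease inhibitor, rose by 1.65 (SE 0.07). No other member of the list was called. Fabp5 and Ctsd rose by 0.61 and 0.58, Apoe by 0.15, and Igf1, Ctsl, Ctsb and Itgax fell by 0.60, 0.50, 0.41 and 0.40. Of 28 lysosomal genes, a list that shares Ctsd, 8 (28.6%) passed the test as higher and 12 (42.9%) as lower. None was called in either direction.

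Complement genes were mostly lower, and genes of Fc receptors and phagocytosis were lower in part. Of 13 tested complement genes 9 passed the test as lower, with the 3 subunit genes of C1q falling by 0.82 to 0.94, C3ar1 by 1.13 (SE 0.04) and C3 by 0.91 (SE 0.13). Among Fc receptors and genes of phagocytosis, 11 of 19 passed the test as lower and 3 as higher. The scavenger receptor gene Stab1 had 21729, 22383 and 19443 counts against 5328, 5705 and 6321 (difference -1.77, SE 0.04). The high-affinity IgG receptor gene Fcgr1 fell by 1.72 (SE 0.11) and the mannose receptor gene Mrc1 by 1.47 (SE 0.06). The 3 higher members were Msr1, the Fc receptor gene Fcgr3 and Axl, by 0.46 (SE 0.04), 0.23 (SE 0.04) and 0.21 (SE 0.04). Ms4a7, listed as a marker of border-associated macrophages, fell from 222 ± 8.43 to 59.2 ± 1.40 CPM (SD, n = 3 each). In the same marker list Pf4, with 121 and 122 CPM, had a difference of 0.01 (SE 0.05, adjusted p = 0.837), and Cd163 and Lyve1 had at most 8 counts in any library.

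Of 38 tested cell cycle and DNA replication genes, 32 passed the test as lower, 1 as higher and 5 did not pass, the median log2 difference was -1.19, and 21 were called lower against 7.38% of all genes. Mki67, a marker of proliferating cells, had 1611, 1497 and 1381 counts in Cgas+/+ and 364, 348 and 369 in Cgas-/- libraries (difference -1.95, SE 0.12). Cenpf, a kinetochore gene, had 221, 201 and 199 against 37, 35 and 50 (difference -2.25, SE 0.20), Plk1, a mitotic kinase gene, 149, 210 and 196 against 37, 29 and 48 (difference -2.19, SE 0.22), and Ccnb1, which encodes cyclin B1, 279, 293 and 225 against 70, 39 and 66 (difference -2.08, SE 0.16). No Cgas-/- library reached the lowest Cgas+/+ library in these genes. Mcm5 and Mcm6, which encode subunits of the replicative helicase, fell by 1.23 and 1.08, and Mcm2 of the same complex rose by 0.37 (SE 0.08). Ccne1, Ccne2, Cdc6, Mcm3 and Tyms did not pass the test. In the list of p53 and DNA damage genes, 9 of 23 (39.1%) passed the test as lower and 7 (30.4%) as higher, against 27.4% and 24.7% of all genes. Brca1, a gene of homologous recombination, fell by 1.36 (SE 0.22), and the cell cycle inhibitor genes Cdkn2a and Cdkn2b rose by 0.98 (SE 0.11) and 0.76 (SE 0.15), while Cdkn1a fell by 0.50 (SE 0.05).

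**Figure D3:**
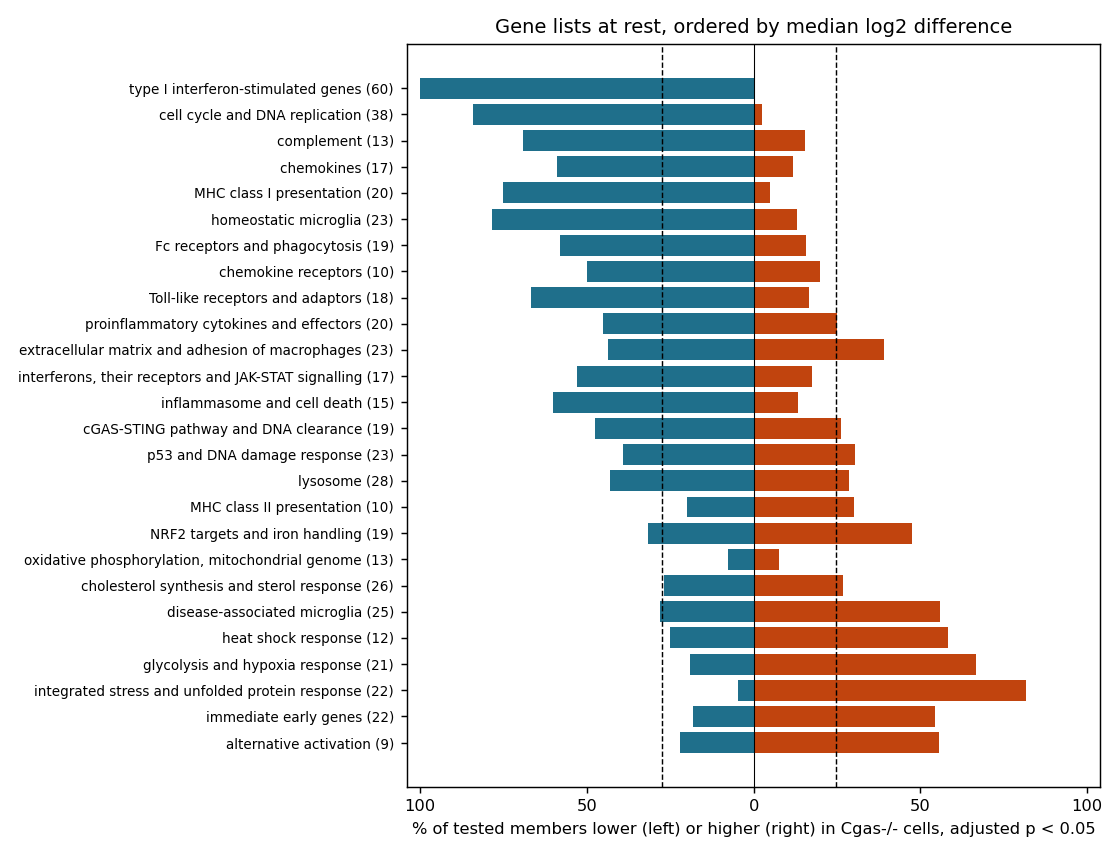
Bars give the share of tested members of each list that passed the test as lower (left, blue) or higher (right, orange) in resting Cgas-/- cells, with the number tested in parentheses, and lists are ordered by median log2 difference. Dashed lines are the shares over all tested genes, 27.4% lower and 24.7% higher. The lists were chosen with earlier results of these data known. Interferon-stimulated genes reach 100% lower and the cell cycle list 84.2% lower, and the stress and unfolded protein response list reaches 81.8% higher.

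Among the genes gained, Arg1 had the largest rise. Arg1 encodes arginase 1, which splits arginine into ornithine and urea and is a marker of alternatively activated macrophages. It had 36, 33 and 27 counts in Cgas+/+ and 1506, 1905 and 2003 in Cgas-/- libraries, from 1.49 ± 0.0895 to 90.5 ± 7.89 CPM (SD, n = 3 each), a log2 difference of 5.91 (SE 0.15, adjusted p = 2.53e-19). All Cgas-/- libraries were above all Cgas+/+ libraries by a wide gap, although the rule for naming Arg1 required groups that did not overlap. Of 9 tested genes of alternative activation, 5 passed the test as higher, all of them called. Besides Arg1, Egr2 rose by 1.27 (SE 0.05), F13a1 by 1.92 (SE 0.45) and Fn1, which encodes fibronectin, by 1.24 (SE 0.08), from 2658 ± 209 to 6288 ± 399 CPM (SD, n = 3 each). Mrc1 and Ear2, members of the same list, fell by 1.47 and 2.04 (SE 0.25), and 8 of the 17 listed genes were too low to be tested. Apart from Ccl6, the remaining large rises came from low counts. Serpinb1a, a protease inhibitor gene, had 1, 2 and 0 counts against 27, 29 and 39. Car6, a secreted carbonic anhydrase gene, had 3, 0 and 4 against 38, 60 and 68. F5, which encodes coagulation factor V, had 15, 17 and 6 against 87, 121 and 159. The others of the 12 largest rises were Ccl6, Adamts15, Hephl1, Spink2, Foxd1, Rnase2a, Oacyl and Hs3st1.

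Metabolic and stress programmes were raised in part. In the list of the integrated stress and unfolded protein response, 18 of 22 genes passed the test as higher and 1 as lower, with a median of 0.49, and 3 were called higher. Hspa5, the chaperone BiP of the endoplasmic reticulum, rose from 739 ± 28.7 to 1507 ± 27.7 CPM (SD, n = 3 each; difference 1.03, SE 0.04). Trib3 rose by 1.13 (SE 0.06), Herpud1 by 1.03 (SE 0.06) and Ddit3, which encodes the factor CHOP, by 0.90 (SE 0.12). In the list of glycolysis and hypoxia genes, 14 of 21 passed the test as higher and 4 as lower. The angiogenic factor gene Vegfa had 384, 348 and 207 counts in Cgas+/+ and 1212, 1428 and 1570 in Cgas-/- libraries (difference 2.27, SE 0.08), Egln3, an oxygen sensor gene, rose by 1.53 (SE 0.09) and Ndrg1 by 1.48 (SE 0.07). Pfkfb3, a regulator of glycolysis, fell by 1.12 (SE 0.04), and Hk1, Hk2 and Eno1 did not pass the test. Genes of the mitochondrial genome stayed close to the all-gene median, with 11 of 13 not past the test, mt-Co1 higher by 0.09 (SE 0.04) and mt-Nd6 lower by 0.14 (SE 0.04).

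Of 22 tested immediate early genes, 12 passed the test as higher and 4 as lower. Egr1 had 245, 250 and 191 counts in Cgas+/+ and 881, 1130 and 1271 in Cgas-/- libraries (difference 2.36, SE 0.16). Klf2 rose by 2.14 (SE 0.09), Ier3 by 1.94 (SE 0.09) and Klf4 by 1.54 (SE 0.09). Jun, Fos, Dusp1 and Nr4a3 fell by 0.31, 0.28, 0.57 and 1.80. Of 12 heat shock genes 7 were higher and 3 lower. The mitochondrial chaperone genes Hspd1 and Hspe1 rose by 0.52 and 0.53 and Hspa1a, with 38 to 81 counts against 9 to 28, fell by 1.67 (SE 0.41). Of 19 NRF2 target and iron genes, 9 were higher and 6 lower, and the metallothionein gene Mt1 was the single one called, with a rise of 1.27 (SE 0.06). Cholesterol genes were near the shares of all genes, with 7 of 26 (26.9%) higher and 7 lower, among them Scd1 with a rise of 1.24 (SE 0.09). Of 23 genes of matrix and adhesion, 9 were higher and 10 lower. Itgb3 and Fn1 rose by 1.25 and 1.24, and Mmp8, Mmp13 and Itga6 fell by 1.51, 1.15 and 1.12.

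The genotype difference was then read in cells of both genotypes treated with tau fibrils or HT-DNA. These libraries are not in the resting contrast, but they entered the low-count filter and the shared estimate of spread behind the resting calls, so the readings are not fully independent. The list of sex-linked genes had a median log2 difference of 0.94 at rest, 0.86 under tau and 0.71 under HT-DNA. Sex, culture and genotype therefore cannot be told apart under the treatments either. With only the resting groups fitted, 820 genes were called lower at rest, of which 811 were among the 1009. Under tau 7.41% of all tested genes were called lower and 2.99% higher, and under HT-DNA 11.8% and 6.31%. Of the 1009 genes called lower at rest, 748 (74.1%) were called lower under tau and 786 (77.9%) under HT-DNA. Of the 359 called higher, 245 (68.2%) and 233 (64.9%) were called higher. The sign of the difference was kept under tau by 994 of the 1009 and 349 of the 359 genes, and under HT-DNA by 979 and 334. No gene called at rest was called in the opposite direction under tau, and 5 genes called lower and 4 called higher at rest were so under HT-DNA. In all 3 conditions 656 genes were called lower (65% of those at rest) and 200 higher (55.7%).

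Programmes differed in how the size of the difference compared across conditions; these differences in size were not tested. For interferon-stimulated genes the median was -3.47 at rest, -1.80 under tau and -5.18 under HT-DNA, with 55 and 60 of the 60 genes called lower under the treatments. The summed level of the list was 8340 ± 327 CPM (SD, n = 3) in Cgas-/- cells under tau and 1720 ± 86.6 under HT-DNA, against 31300 ± 3160 and 50400 ± 1820 in Cgas+/+ cells. For cell cycle genes the medians were -1.19, -1.23 and -0.76, and for homeostatic genes -0.52, -0.50 and -0.57. Among genes gained, Arg1 was higher by 5.20 under tau and 3.74 under HT-DNA, Ccl6 by 3.02 and 3.06, and Vegfa by 2.12 and 1.26. Slco2b1, with differences of -3.87 and -3.47, was low in Cgas-/- cells in every condition. Socs3, called higher at rest, had differences of 0.05 and 0.37 under the treatments.

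**Figure D4:**
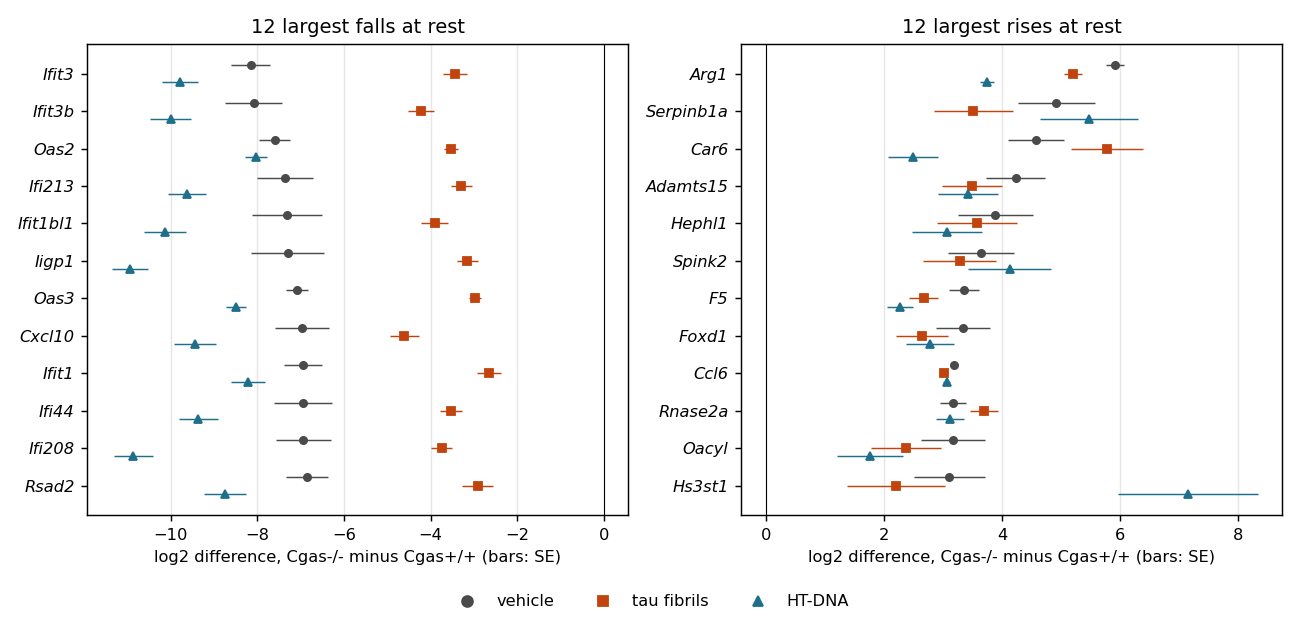
Each gene has 3 log2 differences between Cgas-/- and Cgas+/+ cells with bars of 1 standard error, for vehicle (grey circles), tau (orange squares) and HT-DNA (blue triangles), 3 libraries per genotype and condition. The 12 largest falls at rest (left) are negative in all 3 conditions, with Ifit3 at -8.15, -3.44 and -9.79. The 12 largest rises (right) are positive in all 3, with Arg1 at 5.91, 5.20 and 3.74.

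Genes called at rest were spread over the genome. On autosomes 4.72% to 9.31% of tested genes were called lower and 1.26% to 3.32% higher, and chromosome 9, which holds Cgas, had 8.42% and 2.99%. Cgas-/- mice come from a targeted line, so genes close to Cgas were looked at singly. Of the 50 tested genes nearest in order, 25 on each side over 14.1 Mb, 5 were called lower and 1 higher (12%, against 10% of all tested genes). Gsta4, a glutathione transferase gene 3 places away, had 39, 30 and 12 counts in Cgas+/+ and 1, 4 and 8 in Cgas-/- libraries (difference -2.50, SE 0.55), and Cd109, which encodes a membrane protein, 4 places away on the other side, had 1275, 1272 and 991 against 447, 453 and 456 (difference -1.27, SE 0.07). Mto1 and Eef1a1, the nearest tested genes on the side of Cd109, had differences of 0.08 and 0.07 that did not pass the test. Gm8093, directly next to Cgas on the side of Gsta4, was called higher (difference 1.705, SE 0.67). Gm8093 lies across the end of Cgas in the annotation, and its groups overlapped at 2 to 19 counts.

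**Figure D5:**
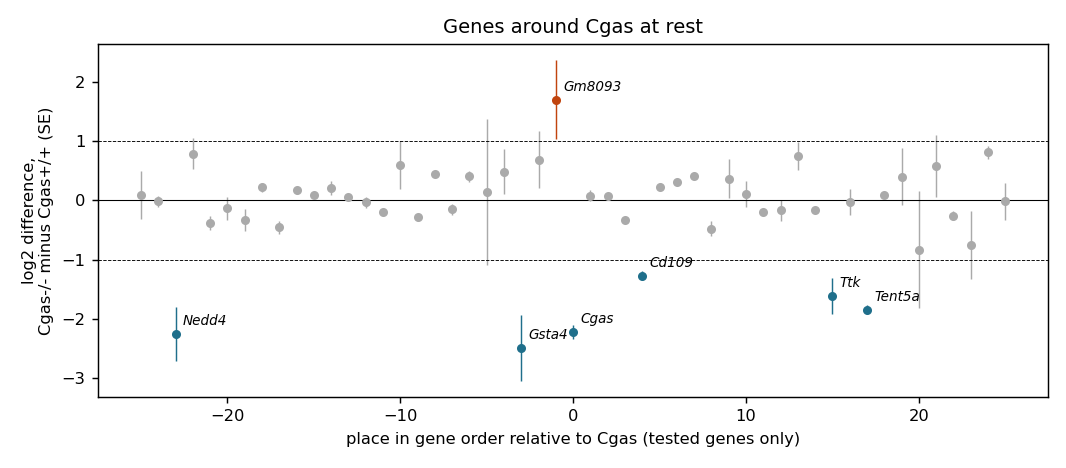
The 25 tested genes on each side of Cgas are placed in gene order on the x axis, with their log2 difference between resting Cgas-/- and Cgas+/+ cells and its standard error on the y axis. Called genes are coloured and named. Cgas stands at -2.22 and Mto1 and Eef1a1 on one side of it near 0, with Gsta4 (-2.50), Cd109 (-1.27), Nedd4, Ttk and Tent5a called lower and Gm8093 called higher.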

How the data were processed

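RNA of cultured microglia was sequenced on a HiSeq, as the study states. The authors deposited raw read counts per gene. Per the labels GRCm38, edgeR and limma are named in the processing notes; the aligner and counter are not given in the sources used here. Columns were mapped to samples by name, and gene symbols and positions were taken from GENCODE vM21. Genes passing filterByExpr were fitted with edgeR 4.0.16 (R 4.3.3; TMM, robust quasi-likelihood) on 18 libraries in 6 groups of 3. A gene was called at a Benjamini-Hochberg adjusted p under 0.05 over all tested genes and a log2 difference beyond 1. The method was tested on simulated counts in which a small set of genes changed, equally in both directions and only between the resting groups. In the data far more genes passed the test and large changes were mostly falls. The simulation therefore does not check the calls under such conditions. An exact permutation test of 3 against 3 cannot go below p = 0.1.

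The members and gene lists were chosen with earlier results of these data known. Named genes were Cgas, up to 12 rises and 12 falls with groups that did not overlap and a mean count of at least 20 in the higher group, leaving out gene models, and up to 4 list members per direction (2 where none passed). Other genes were named after their values were seen. Replicate numbers did not pair the libraries. Alternatives were DESeq2 1.42.0, limma 3.58.1 with voom, RLE factors, no filter, only the groups compared, any fold change, a replicate block and leaving out each library. Floors of 3 counts and intervals cover counting error only.

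Some members of the lists are not reported by name here; they remain in the counts and medians.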

Additional observations from a re-analysis of the deposited data

Results flagged for a closer look

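For the following genes every library separated one way at rest and the opposite way under a treatment; the difference between conditions was not tested. All values are log2 differences, Cgas-/- minus Cgas+/+. Tnf was 0.53 at rest, -0.87 under tau and -1.19 under HT-DNA. Nfkbia, the NF-kB inhibitor gene, was 0.27 at rest, -0.35 under tau and -0.78 under HT-DNA. Cxcl2 was 1.01 at rest and -0.93 under tau. Under HT-DNA, Axl was -0.99 (0.21 at rest), Ch25h -0.92 (0.35), Irf8 -0.37 (0.13), Msr1 -0.23 (0.46), Jak1 -0.13 (0.15) and Fcgr3 -0.09 (0.23). In the other direction under HT-DNA, Stard4 was 1.04 (-0.50 at rest), Gclc 0.82 (-0.29), Srxn1 0.68 (-0.21) and Slc40a1 0.43 (-0.40). The groups of Ch25h at rest were separated narrowly (79.18 CPM in the highest Cgas+/+ and 79.20 in the lowest Cgas-/- library), and its resting difference did not pass the test with only the groups compared (adjusted p = 0.114) or without any 1 of 4 libraries (Cgas+/+ replicates 2 and 3 and Cgas-/- replicates 2 and 3, adjusted p from 0.0709 to 0.117).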

How the results depend on the processing

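The counts of genes called lower at rest (1009) and higher (359) stayed within 1.5 times under every other tool and filter: 1023 and 343 with DESeq2, 977 and 359 with limma voom, 1012 and 358 with RLE factors, 1040 and 407 with no filter, and 820 and 341 with only the groups compared. DESeq2 shared 943 of the 1009. Without the fold threshold, 3752 genes were lower and 3373 higher, list members 266 and 140, and genes of the same direction under tau 2873 and 2544 and under HT-DNA 2770 and 2561. Leaving out 1 library gave 947 to 1000 lower and 339 to 394 higher, 131 to 139 and 35 to 39 list members, 696 to 745 and 234 to 252 under tau, 733 to 802 and 220 to 244 under HT-DNA, and -2.36 to -2.08 for Cgas. Of 210 named genes 186 kept their direction and their side of an adjusted p of 0.05, at any fold change, in all 12 fits. Snap25, not past the test at -0.66, ranged from -2.72 to 0.81 when 1 library was left out and changed sign without Cgas+/+ replicate 3. Ifnb1 did not pass with limma voom (adjusted p = 0.069).

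The replicate numbers did not pair the libraries (correlations of -0.019, -0.019 and -0.124). With a replicate block, 996 genes were lower and 355 higher. Calls of genes with few counts are limited by depth.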

Other observations

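Outside the gene lists and leaving out gene models, genes called at rest were counted if their groups did not overlap and the higher group reached 100 CPM. There were 44 such genes called lower and 14 called higher. The share over all tested genes at that level is not given. Those named here were chosen after their values were seen. Among the lower genes were Irgm1, an interferon-inducible GTPase gene (log2 difference -3.08), Helz2 (-2.74), Znfx1 (-2.69), Samd9l (-2.53), Ly6e (-2.35) and the RNA-editing enzyme gene Adar (-1.84). Cd180 was at -1.66, Il10ra, which encodes a subunit of the IL-10 receptor, at -1.45 and Siglec1 at -1.44.

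Among the higher genes, Ptgir, which encodes the prostacyclin receptor, had 720, 753 and 497 counts in Cgas+/+ and 2595, 2834 and 3573 in Cgas-/- libraries, a difference of 2.30 (SE 0.05). Clec4e, a C-type lectin receptor gene, was higher by 1.70, Cd53 by 1.37, Srgn by 1.18, the stress-response phosphatase subunit gene Ppp1r15a by 1.18 and Il6st, which encodes gp130, by 1.06.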
